A study of Homo sapiens with 2 samples.

Results

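The genes described here are 40 named components of the Wnt signalling pathway, the ligands, receptors, inhibitors, cytoplasmic regulators and nuclear factors, in the head and neck cancer cell line OECM1. They were found by their gene symbols in the array's annotation. Of the 40, 37 had a probe set (a group of short probes for 1 transcript) that carried their symbol alone, out of 19775 such genes in all. These 37 had 94 probe sets. The expression of WNT3, FZD8 and TCF7 was not analysed here, since WNT3 and FZD8 were named only by probe sets that carry a further gene and no listed probe set named TCF7.

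Cells transfected with pmCherry-let7i, a plasmid for the microRNA let-7i that also encodes the fluorescent marker mCherry, were compared with cells transfected with the pmR-mCherry empty vector. Both groups were OECM1 cells grown in RPMI medium with fetal bovine serum, and the transfection was stable. Whether each culture was a clone or a pool is not given in the sources used here. Total RNA of 1 culture per group was hybridised to 1 array, so no difference below had a replicate check, and no p-value or SD between cultures could be given.

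Wnt proteins are secreted lipid-modified ligands that bind Frizzled receptors at the cell surface. In the canonical branch, Frizzled and the co-receptors LRP5 or LRP6 recruit Dishevelled and Axin, the destruction complex of Axin, APC and GSK3 stops marking beta-catenin for degradation, and beta-catenin enters the nucleus and binds TCF/LEF factors. Other branches act through ROR and RYK receptors and the planar polarity proteins. In squamous epithelia the pathway is known for its part in stem cell maintenance and cell motility.

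let-7i acts through its seed, bases 2 to 8 of the mature strand, which pairs with matching sites in messenger RNAs. The mature strands of let-7i and of let-7g are shown because they carry the agent of the experiment and a sequence of the same family with the same seed, which is in capitals. The sequences are from RefSeq (GRCh38.p14). let-7i-5p lies at chr12:62603691-62603712 on the plus strand, and its seed was shared by 11 of 2370 named mature human microRNAs in the table.
hsa-let-7i-5p: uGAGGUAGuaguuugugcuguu
hsa-let-7g-5p: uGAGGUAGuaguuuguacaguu
The array does not read mature microRNAs, so the level of let-7i itself did not check the labels.

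A signal counted as measured at or above the floor, the median of all probe sets on its array, which was 88.0 for the control array and 79.5 for the let-7i array. A gene is described by its brightest probe set, taken over both arrays, and ratios are log2 values of let-7i over empty vector, centred on the median gene. The SD of 1 probe set, from 5807 genes with at least 2 measured probe sets, was 0.25 on the log2 scale. It ran from 0.34 for the dimmest 1452 of these genes to 0.15 for the brightest 1451. The genes were ranked by the dimmer of their 2 brightest measured probe sets, and the SD pools both. It may therefore be too small for a dim probe set, and it covers probe noise only. Signals of different probe sets are not comparable as levels, because probes differ in brightness.

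OECM1 carried epithelial markers on both arrays. CDH1, DSP, PERP, SFN, KRT8 and KRT18 were measured, while KRT5, KRT14 and DSG3, markers of stratified squamous cells, were below the floor on both arrays. KRT6A, KRT17 and TP63, also on the list of 12, had no probe set of their own and were not read. The other 9 epithelial markers summed to a signal of 76527 in the control culture and 71836 in the let-7i culture. Of 10 fibroblast markers 4 were measured, with summed signals of 1142 and 1535 over the list and a median log2 ratio of 0.51. In their brightest probe sets DCN was 1.97-fold, FAP 1.70-fold and COL1A1 1.20-fold higher with let-7i, and ACTA2 was 1.08-fold lower. Of the 7 DCN probe sets 1 was measured on both arrays, and its ID marks it as able to match several transcripts. A second DCN probe set reached the floor with let-7i only (57.0 and 164.6), and a dimmer one read 59.4 and 39.5. Of the 5 COL1A1 probe sets 2 were measured. COL1A2, COL3A1, LUM, PDGFRA and PDGFRB were below the floor on both arrays. THY1 reached the floor with let-7i in 1 of its dimmer probe sets (17.1 and 91.9). CDH1 was 1.34-fold lower with let-7i. Of the other lists 1 of 6 leukocyte and 1 of 6 endothelial markers were measured. The part of these markers in the results below was not tested.

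Most of the pathway differed little between the cultures. Of the 37 members, 25 were measured, each of them on both arrays, and 12 were below the floor on both. Among all 19775 genes 62.1% reached the floor on 1 or both arrays. Of the 25 measured members 16 had a higher and 9 a lower signal with let-7i, read from 1 probe set a gene. Of the 12284 genes that reached the floor on either array 48.7% were higher and 49.8% lower. The median log2 ratio was 0.11 over the members and -0.01 over these genes. No member was at least 2-fold higher, where 1.06% of all genes were, and 1 member, TCF7L1, was at least 2-fold lower, where 1.38% of all genes were. The single member past 2-fold is 1 of 25, and 2.43% of all genes were past 2-fold in either direction, so the count does not set the members apart. At 1.5-fold TCF7L1 was again the only member past the threshold, where 10.1% of all genes were. The ratio lay within 1 SD of a probe set (0.25) in 19 of 25 members (76.0%) and in 62.4% of the 11140 genes measured on both arrays. These shares are descriptions without a test.

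**Figure D1:**
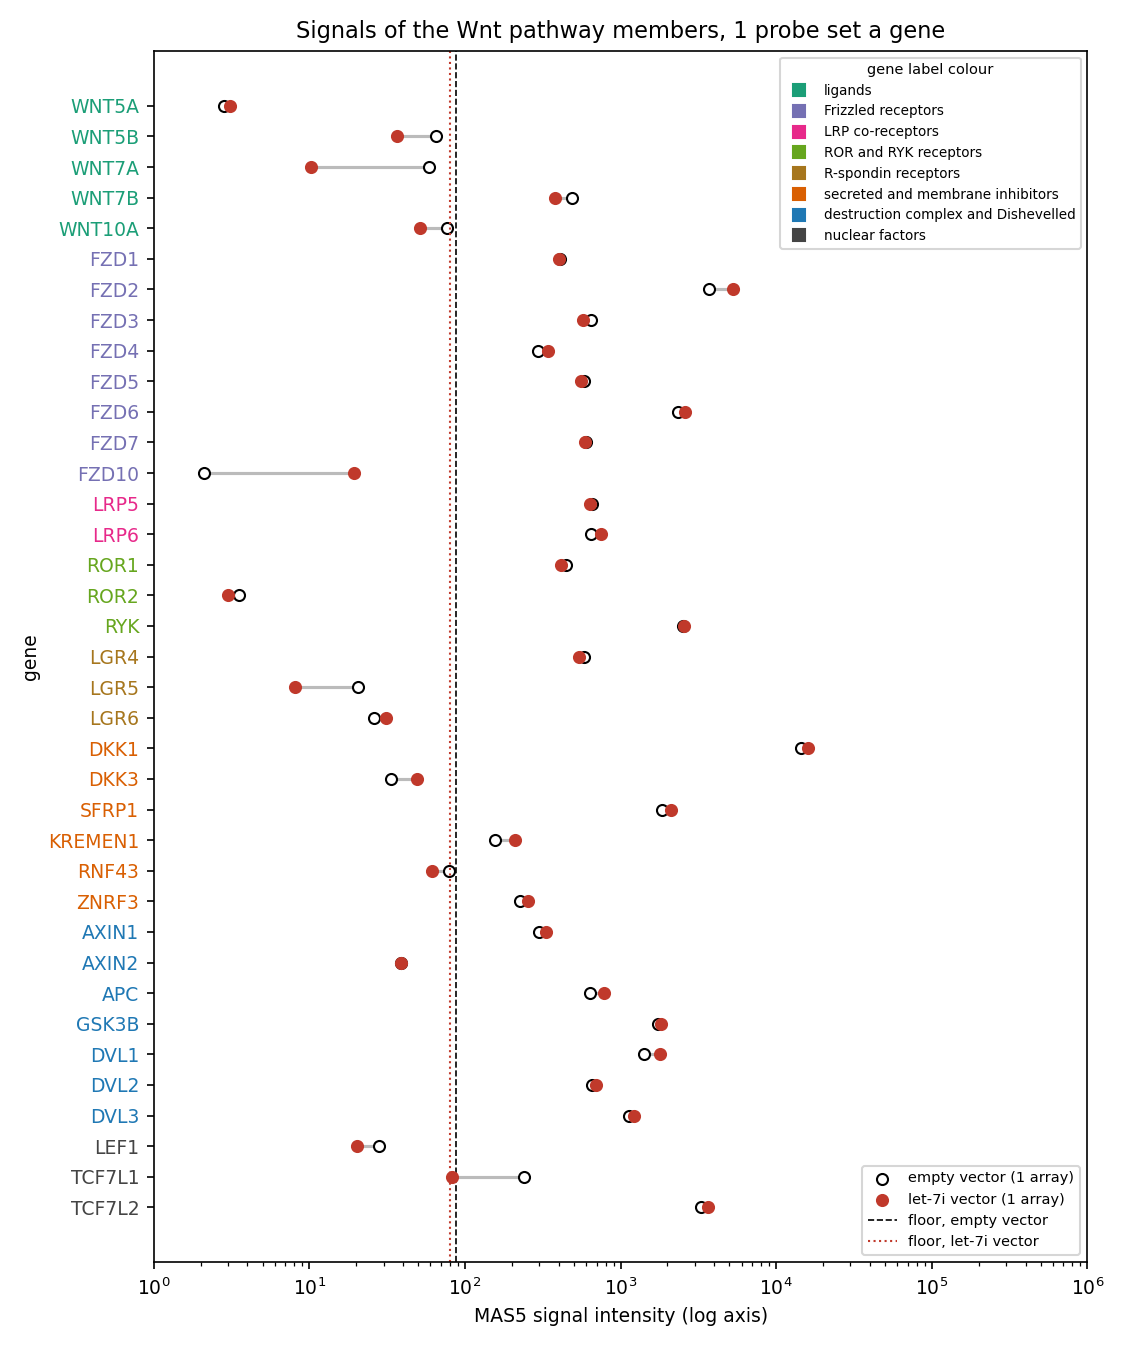
MAS5 signal (horizontal, log axis) of the 37 members, 1 probe set a gene, with open circles for the empty vector and filled circles for let-7i (1 array each) and vertical lines for the floors of 88.0 and 79.5. The circles nearly coincide for most measured members, and TCF7L1 spans from 239 to 82.2, just above the let-7i floor.

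Among the ligands, WNT7B was the only member measured. It is a secreted ligand of epithelia. Its brightest probe set gave 483 in the control culture and 377 in the let-7i culture, a 1.28-fold lower signal and a log2 ratio of -0.36. Its other probe set gave 373 and 173, a log2 ratio of -1.11. Both probe sets were lower with let-7i, and they differ in size by more than the SD at such signals (0.26). The ID of the dimmer one marks it as able to match several transcripts.

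The other ligands were below the floor on both arrays. WNT5A, the prototype of the non-canonical ligands, had signals of 2.84 and 3.08, and its other probe set was as dim. WNT5B, its close relative, had 65.6 and 36.4. WNT7A had 59.0 and 10.2, and WNT10A had 76.9 and 51.1. At this floor these 4 genes have no ratio. In bulk RNA fewer expressing cells and less RNA per cell cannot be told apart.

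Of 8 Frizzled genes, the receptors that bind the ligands, 7 were measured, 3 higher and 4 lower with let-7i, with a median log2 ratio of -0.02. FZD2 had the largest ratio, with signals of 3688 and 5285, a 1.43-fold higher signal and a log2 ratio of 0.52. That is 3.44 times the SD at such signals (0.15), but its other probe set (610 and 651) gave 0.09. The size of the FZD2 difference therefore depended on the probe set, though both were higher. FZD6, a receptor of planar polarity, had signals of 2327 and 2577 in its only probe set, a log2 ratio of 0.14. FZD4 had 295 and 341, a log2 ratio of 0.20, with its other probe set below the floor.

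The remaining Frizzled ratios were near 0. FZD1 gave 408 and 405, a log2 ratio of -0.02, while a dimmer probe set reached the floor only with let-7i (55.2 and 110.0), at least 1.25-fold higher. The direction of FZD1 turned after lowess centring (0.02), quantile normalization (0.01) and averaging of its probe sets (0.17). FZD5 gave 584 and 553, a log2 ratio of -0.08. FZD7 gave 602 and 587, and its 2 probe sets gave log2 ratios of -0.04 and -0.21. FZD3 had 4 measured probe sets, the brightest at 642 and 576, with log2 ratios from -0.55 to 0.03. FZD10 was below the floor, at 2.09 and 19.3.

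The co-receptors of the canonical branch were measured on both arrays. LRP6 had signals of 644 and 745, and its 3 probe sets gave log2 ratios between 0.21 and 0.30, all higher with let-7i. LRP5 gave 651 and 633, a log2 ratio of -0.05. Neither reached 1.5-fold.

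The alternative receptors split by expression. RYK, a Wnt-binding receptor with an inactive kinase domain, had signals of 2504 and 2553, and its 3 probe sets gave log2 ratios from -0.21 to 0.02. Its direction turned after lowess centring (-0.0014), quantile normalization (-0.01) and averaging of its probe sets (-0.07). ROR1, a receptor of WNT5A, had 447 and 413 in its brightest probe set and log2 ratios of -0.12, -0.06 and -0.56 in 3. All 3 were lower with let-7i. Its relative ROR2 was below the floor, at 3.51 and 3.003.

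Of the R-spondin receptors, which raise the amount of Frizzled at the membrane, LGR4 was measured (579 and 538), with a log2 ratio of -0.11. The stem cell marker LGR5 was below the floor, at 20.4 and 8.03 in its brighter probe set, and LGR6 was at 25.8 and 30.9. LGR4 was the one measured member of its group.

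**Figure D2:**
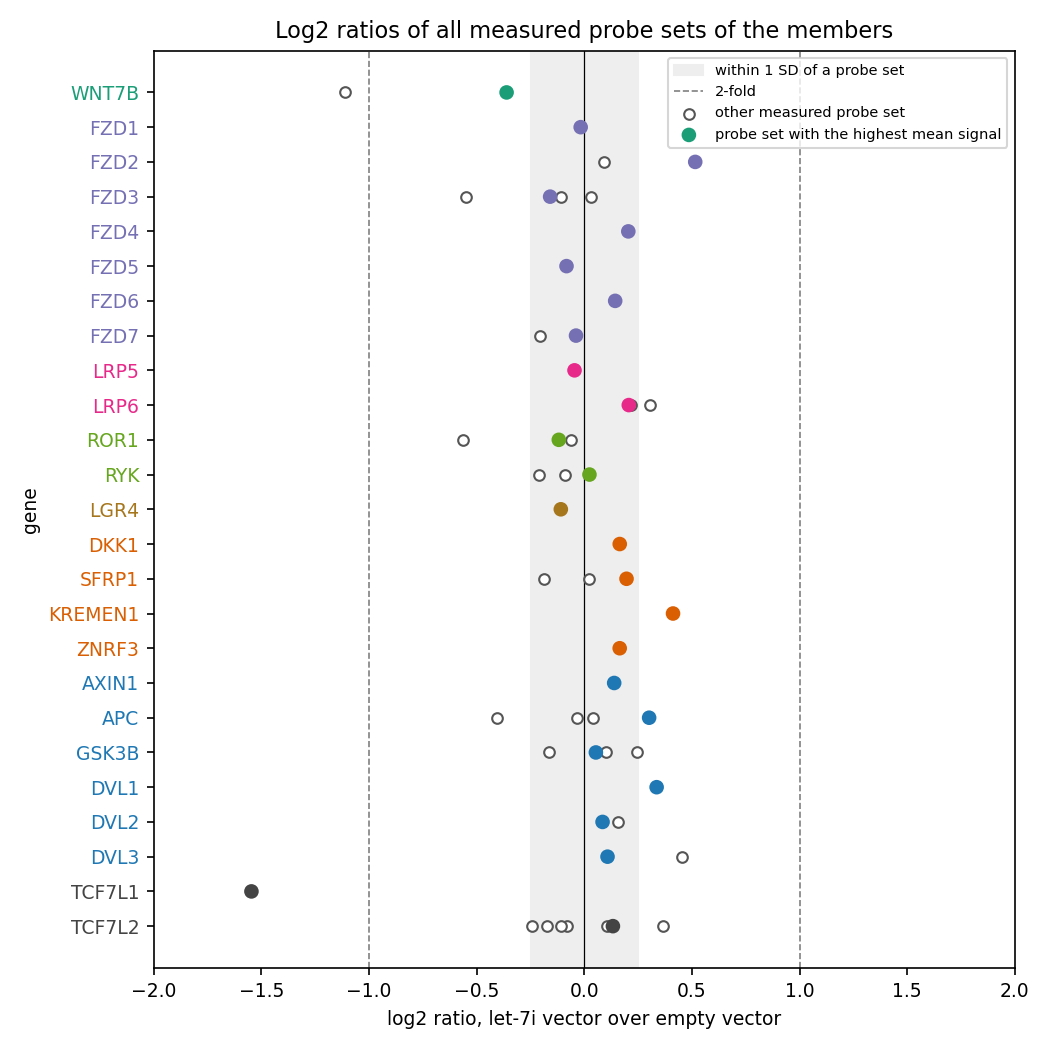
Log2 ratio, let-7i over empty vector, of all 53 probe sets of the members measured on both arrays, with filled circles for the probe set that stands for a gene and open circles for the others. The grey band is 1 SD of a probe set (0.25) and the dashed lines mark 2-fold, and only a WNT7B probe set at -1.11 and TCF7L1 at -1.55 lie beyond them.

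All 4 measured inhibitors acting at the cell surface had a higher signal with let-7i, where 48.7% of all genes had. Their median log2 ratio was 0.18, and none reached 1.5-fold. DKK1, a secreted antagonist that binds LRP5 and LRP6, had signals of 14332 and 16106, a 1.12-fold higher signal and a log2 ratio of 0.16. SFRP1, a secreted decoy that binds Wnt ligands, had 1837 and 2111, but its 3 measured probe sets ran from -0.19 to 0.20. SFRP1 therefore had no common direction over its probe sets.

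KREMEN1, a receptor that works with DKK1, had 156 and 208, a log2 ratio of 0.41. Its other probe set above the floor on an array was at 93.8 with the empty vector and fell short of the floor with let-7i, a difference of at least 1.18-fold, so the probe sets of KREMEN1 point in opposite directions. ZNRF3, a ubiquitin ligase that removes Frizzled from the membrane, had 227 and 255, a log2 ratio of 0.16. Its relative RNF43 was below the floor, at 79.4 and 61.8. DKK3, a divergent Dickkopf protein, was below the floor in all 6 of its probe sets.

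DKK1 is itself known as a target of beta-catenin and TCF, and its upstream sequence is shown because it was the one member promoter with more than 1 match to a TCF/LEF motif. The motifs searched were CTTTGAA, the similar CTTTGAT, the form CTTTGTA and, as the last, CTTTGTT, on both strands, in 300 bases from 250 before to 50 after each RefSeq start site. Matches are in capitals, at 95 and 76 bases before the start site, in the 250 bases upstream at chr10:52314031-52314280 (GRCh38.p14, plus strand).
DKK1: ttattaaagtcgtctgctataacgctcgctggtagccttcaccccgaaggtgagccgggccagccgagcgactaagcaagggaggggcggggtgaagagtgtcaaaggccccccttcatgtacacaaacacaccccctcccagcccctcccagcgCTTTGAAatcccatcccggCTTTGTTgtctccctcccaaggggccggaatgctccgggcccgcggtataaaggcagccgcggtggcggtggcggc
Promoters were at hand for 27 of the 40 named genes, WNT3, FZD8 and TCF7 included, 36 windows in all, and 4 windows (11.1%) held a motif, against 13.8% of all 35116 windows. The other 3 belonged to TCF7, TCF7L2 and WNT3. A match is a description of the letters and does not mark a bound site.

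The destruction complex and Dishevelled genes had 6 measured members of 7. All 6 were higher with let-7i, where 48.7% of all genes were. The log2 ratios were small, between 0.05 and 0.34, with a median of 0.12. DVL1, which passes the signal from Frizzled to Axin, had signals of 1420 and 1798 in its only probe set, a 1.26-fold higher signal and a log2 ratio of 0.34. That is 2.24 times the SD at such signals. DVL2 had 652 and 694, and its 2 probe sets gave log2 ratios of 0.08 and 0.16. DVL3 had 1125 and 1215, with 0.11 and 0.46. All measured probe sets of the 3 Dishevelled genes were thus higher with let-7i.

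The members of the complex itself were less uniform. AXIN1, its scaffold, had 298 and 329, a log2 ratio of 0.14. GSK3B, the kinase that marks beta-catenin, had 1742 and 1813, and its 4 measured probe sets ran from -0.17 to 0.25. APC, the second scaffold, had 633 and 783 in its brightest probe set, a log2 ratio of 0.30, while its 4 measured probe sets ran from -0.41 to 0.30. The remaining, dim APC probe set (126.8 and 40.2) was at least 1.60-fold lower. The direction of APC turned to -0.13 with the mean of its probe sets, that bound included. Without probe sets shared between transcripts the same dim probe set alone was left, and the -0.66 of APC there is its bound. AXIN2, the Axin that is a widely used readout of beta-catenin and TCF activity, was below the floor in all 4 of its probe sets. The brightest was at 38.9 and 38.8 and the next at 14.1 and 59.4, so no direction of AXIN2 can be read.

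The nuclear factors held the only member past 2-fold. TCF7L1, also called TCF3 in older work, is a TCF factor known mainly as a repressor of target genes. Its signal was 239 in the control culture and 82.2 in the let-7i culture, a 2.92-fold lower signal and a log2 ratio of -1.55. The ratio is 4.57 times the SD taken for such signals (0.34), which may be too small for a dim probe set. The ratio also rests on a single probe set whose let-7i signal is just above the floor of 79.5. With higher floors, the 65th percentiles of the arrays (229 and 214), only a bound of -0.18 remained, and without probe sets shared between transcripts TCF7L1 had no value.

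TCF7L2, the TCF factor best known from intestinal epithelium, gave 3298 and 3626, a log2 ratio of 0.13. Its 7 measured probe sets ran from -0.24 to 0.36 and had no common direction. LEF1, an activating factor of the same family, was below the floor in all 3 of its probe sets, the brightest at 27.9 and 20.3.

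The upstream sequence of TCF7L1 is shown because it was the one member past 2-fold. It covers the 250 bases before its start site, at chr2:85133142-85133391 (GRCh38.p14, plus strand), from RefSeq, and its window held none of the 4 motifs on either strand.
TCF7L1: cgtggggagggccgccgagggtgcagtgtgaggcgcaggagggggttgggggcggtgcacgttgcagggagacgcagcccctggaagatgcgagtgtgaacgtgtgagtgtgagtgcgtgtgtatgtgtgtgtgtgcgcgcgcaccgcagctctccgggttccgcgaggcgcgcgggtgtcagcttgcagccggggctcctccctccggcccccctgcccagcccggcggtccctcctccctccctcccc

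**Figure D3:**
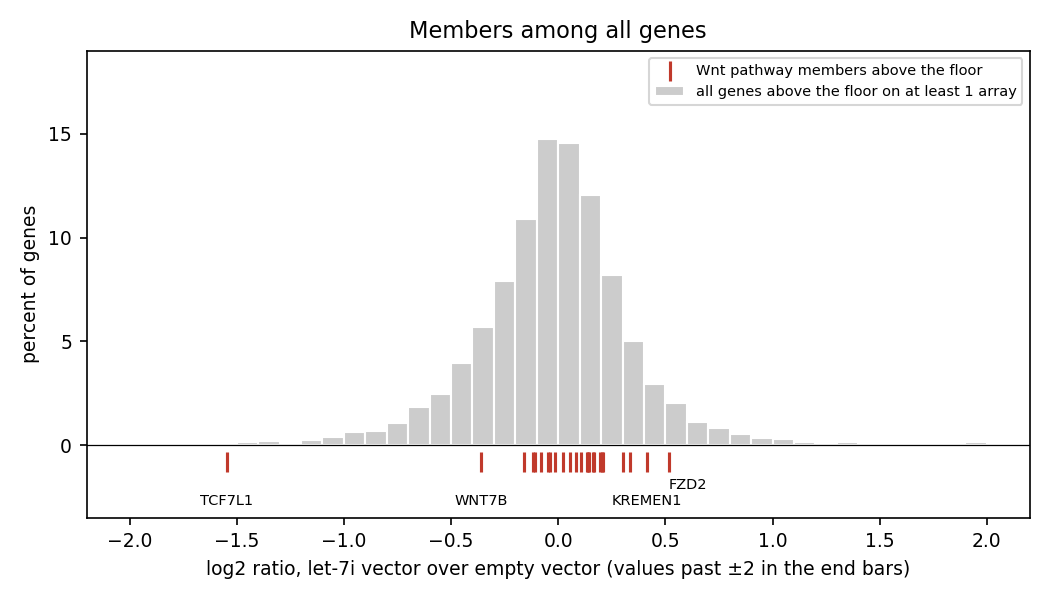
Percent of the 12284 genes that reached the floor on either array (grey bars, vertical) by log2 ratio (horizontal, bars 0.1 wide), with red ticks for the 25 measured members. The ticks lie between -0.36 and 0.52 except for TCF7L1 at -1.55.

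Agreement among the probe sets of a member limits how small a difference can be read. Of the 13 members with at least 2 measured probe sets, 7 had all of them on one side of 0 and 6 had them on both sides. In addition 12 members had a single measured probe set. Of the 53 measured probe sets 2 were at least 2-fold lower, those of TCF7L1 and WNT7B, and 0 were at least 2-fold higher. In the brightest probe set, the ratios of FZD2, DVL1 and TCF7L1 exceeded 2 SD of a probe set at their own signal. Among the dimmer measured probe sets, those of WNT7B, ROR1 and FZD3 also did (4.23, 2.13 and 2.08 SD), all lower with let-7i. The share of all genes past 2 SD was not worked out, so these members are not set apart by it.

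The other genes of the pathway were taken from lists of 97 further components and reported targets, of which 91 had a probe set of their own and 55 were above the floor. Of these 30 were higher, 24 lower and 1, NOTUM, had a bound that leaves the direction open, with a median log2 ratio of 0.03. None was at least 2-fold higher and 1, EPHB3, was at least 2-fold lower, 1 of 55 genes against 1.38% of all genes.

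Of the 12 other Wnt ligand genes 2 were above the floor in their brightest probe set. Besides these, WNT2B reached it with let-7i in another probe set alone (62.0 and 92.1). WNT16 had 167 and 134, a log2 ratio of -0.32, and WNT6 had 174 and 204, a log2 ratio of 0.22. All other probe sets of WNT16 and WNT6 were below the floor on both arrays. WLS, which carries Wnt proteins to the cell surface, had signals of 2297 and 2575, and its 3 probe sets gave log2 ratios from 0.07 to 0.16. Of 14 other inhibitors KREMEN2 alone reached a floor, that of the control array (95.02 and 60.1), which makes it at least 1.20-fold lower.

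Of 14 other cytoplasmic regulators 13 were measured, 8 higher and 5 lower, with a median log2 ratio of 0.03 and none past 1.5-fold. CTNNB1, beta-catenin, gave 2041 and 2469 in its brightest probe set, a log2 ratio of 0.27. Its other 2 probe sets were dimmer and gave -0.61 and -0.63, and averaging the probe sets turned its direction (-0.30). CSNK1E, a casein kinase that acts on Dishevelled, was 1.42-fold higher (418 and 593), and its 2 probe sets gave 0.50 and 0.45. APC2, a relative of APC, was 1.44-fold higher at dim signals (103 and 149).

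All 12 nuclear cofactors were measured, 5 higher and 7 lower, with a median log2 ratio of -0.04. TLE1, TLE2, TLE3 and TLE4 are Groucho corepressors that bind TCF factors, and they did not share a direction. TLE2 had signals of 911 and 474, a 1.93-fold lower signal, and its 2 probe sets gave log2 ratios of -0.95 and -0.52. TLE4 had 1771 and 1263, a 1.41-fold lower signal, and of its 5 probe sets 4 gave log2 ratios between -0.51 and -0.32, while the dimmest gave 0.14. TLE1 had a log2 ratio of 0.05, with 4 measured probe sets from -0.22 to 0.20, and TLE3 had 0.17, with 4 from 0.03 to 0.55. PYGO1, a cofactor of beta-catenin, was 1.61-fold higher at dim signals (114.0 and 183.5), and its other measured probe set gave 0.14.

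In the planar polarity and calcium branch 13 of 16 genes were above the floor, 5 higher and 8 lower, with a median log2 ratio of -0.09. CELSR2 and CELSR1 are atypical cadherins of planar polarity. CELSR2 had signals of 988 and 688, and its 2 probe sets gave log2 ratios of -0.53 and -0.55. CELSR1 had 562 and 394, a log2 ratio of -0.51, with its other probe sets below the floor on both arrays. CAMK2G, a calcium-dependent kinase, had log2 ratios from -0.91 to -0.13 in 3 measured probe sets, all lower with let-7i.

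Of 18 genes reported as Wnt targets 13 were above the floor, 10 higher and 2 lower, with NOTUM left without a direction. Over all genes 48.7% were higher and 49.8% lower. The median log2 ratio of these 13 targets was 0.34. SP5, ASCL2, ID2, FGF18 and FGF9 were below the floor on both arrays. So was AXIN2, a readout of the pathway that is counted among the members and not on this list. The list was chosen with earlier results of these data known, and whether Wnt signalling has a part in these values was not tested. Many of these genes also respond to other pathways. FOSL1, an AP-1 subunit that growth factors also induce, had signals of 3953 and 7372, a 1.86-fold higher signal and a log2 ratio of 0.90. VEGFA, an angiogenic growth factor, had 4103 and 6700, and its 4 probe sets gave log2 ratios from 0.58 to 1.302. EPHB3, a receptor of ephrins, had 167 and 81.3, a 2.06-fold lower signal close to the floor with let-7i. Its other probe set was at least 1.61-fold lower, and the 2-fold call of EPHB3 was lost after lowess centring (-0.91), quantile normalization (-0.92) and averaging of its probe sets (-0.84).

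**Figure D4:**
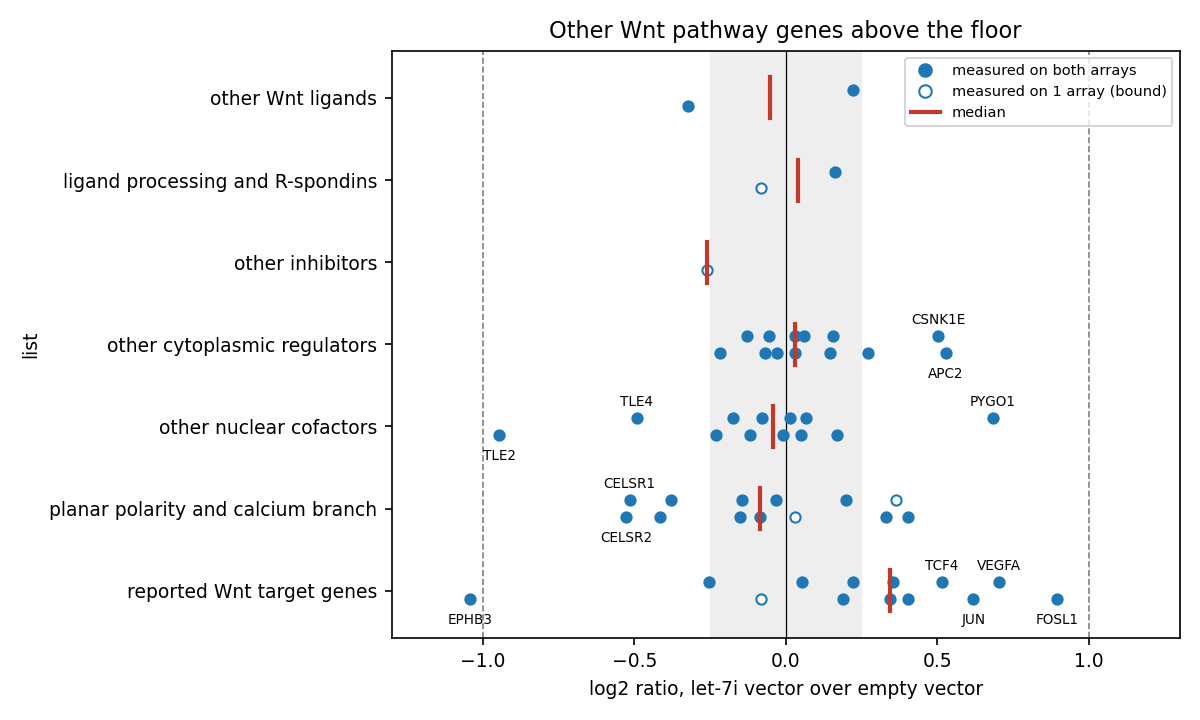
Log2 ratio, let-7i over empty vector, of the other pathway genes above the floor, by list, with filled circles for genes measured on both arrays, open circles for bounds and red bars for list medians. The medians lie between -0.26 and 0.34, and gene names mark ratios beyond 0.45 in either direction, with EPHB3 the only one past 2-fold.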

How the data were processed

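The deposited intensities are linear signals of 1-colour arrays. The submitters' processing notes name MAS5 as the tool, with no version or settings. MAS5 subtracts mismatch signal, so dim values are noisy. The trimmed mean (2% off either tail) is 500.1 on both arrays, so differences in total RNA per cell are removed. Of 54675 probe sets, 41097 carried 1 gene symbol in the platform annotation and were used, 1801 carried several and 11777 were not listed. The symbols of all 94 member probe sets matched RefSeq (GRCh38.p14) by Entrez ID.

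Signals below the floor (50th percentile of each array) were set to it, which makes the ratio a bound, and no ratio was given where both signals were below it. Centring on the median ratio of the genes measured on both arrays moved all ratios by 0.0036. Genes were called by size at 2-fold, since 1 array per group allows no test, and the number of arrays limits the precision. The members and lists were chosen with earlier results of these data known. Every member is reported, with the up to 3 largest absolute ratios of each other list and CTNNB1. The procedure was tested on simulated data, with changes put only into brighter genes measured on both arrays and noise of the size of the probe set SD. That simulation does not cover changes in dim genes or variation between cultures. Software was Python 3.11.15 with pandas 2.3.3, NumPy 2.4.6, Matplotlib 3.10.9 and statsmodels 0.14.6.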

Additional observations from a re-analysis of the deposited data

How the results depend on the processing

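No paired analysis was possible because each group had 1 array, and no array could be left out. Alternatives were no centring, lowess centring, quantile normalization, a floor at the 25th or the 65th percentile, the mean over probe sets, leaving out probe sets shared between transcripts, genes measured on both arrays only, and thresholds of 1.5-fold and 3-fold. Of 193 values of single members under these alternatives, 188 moved by less than the SD of 1 probe set (0.25) and 5 by more. APC, FZD1 and RYK changed sign under some of them. Some settings could hardly move a measured member, so the 188 overstate how far the values were tried. Leaving out the centring moved all ratios by 0.0036. Keeping only genes measured on both arrays changed no member value, and the lower floor could act on these values only through the centring. Of 164 counts and list medians 145 stayed within 1.5 times or within that SD. With a floor at the 25th percentile 2 members were at least 2-fold lower, TCF7L1 and WNT7A, the median was -0.71 for the ligands, -0.44 for the nuclear factors and -0.23 for ligand processing, and 1 other pathway gene (NKD1) was at least 2-fold higher and 2 (EPHB3 and RSPO2) at least 2-fold lower. With a floor at the 65th percentile 0 members and 0 other pathway genes were at least 2-fold lower, and the nuclear factor median was -0.026. The mean over probe sets gave a ligand median of -0.72 and 0 other pathway genes at least 2-fold lower. Without shared probe sets 0 members were at least 2-fold lower and the nuclear factor median was 0.15, TCF7L1 having no value. The count of other pathway genes at least 2-fold lower was 0 after lowess centring and 0 after quantile normalization. Past 1.5-fold were 4 other pathway genes on the higher and 2 on the lower side, and 0 members and 0 other pathway genes were at least 3-fold lower. Over all genes the floor at the 25th percentile gave 654 higher and 1113 lower past 2-fold, and at the 65th 62 and 71, against 130 and 169. Apart from the changes that the number of genes or the threshold makes, the cause was not tested.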

Other observations

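Some pathway genes outside those described above, picked out after their values were seen, also had probe sets that point in different directions. MAPK8, the stress kinase JNK1 of the planar polarity branch, had log2 ratios of 0.40, 0.16, -0.20, -0.31 and -0.87 in 5 probe sets, from the brightest to the dimmest, and their mean was -0.14 after centring anew. CSNK1D, a casein kinase, had -0.22 in its brightest probe set (3048 and 2629) and 0.30 in the next (1180 and 1455). Of the 12 members below the floor on both arrays, 9 got a ratio or bound when the floors were lowered to the 25th percentiles (22.2 and 19.01), and WNT5A, ROR2 and LGR5 got none. WNT7A then had a bound of -1.62, WNT5B a ratio of -0.84, WNT10A of -0.58, LEF1 of -0.44 and RNF43 of -0.35. DKK3 had 0.55, LGR6 0.27 and AXIN2 0.01. Each value is from the brightest probe set of its gene. The next probe set of DKK3 was lower with let-7i (37.5 and 26.4), and that of AXIN2 was higher (14.1 and 59.4). FZD10 reached the lowered floor with let-7i alone, and its bound leaves the direction open. The SD of 1 probe set was not measured at such dim signals.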
